A study of Solanum lycopersicum with 84 samples.

Results

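The genes described here are 4 rows of a tomato count table of 34075 genes: HDT1 (Solyc09g009030.4), a gene annotated as a histone deacetylase-like protein (Solyc08g067630.3), PRMT4B (Solyc12g099560.2) and IDM3 (Solyc04g082740.4). They were picked for a function in chromatin or an annotation with one, and for differences between N-supplied and N-starved plants measured in these same libraries. HDT1 was picked on both organs, PRMT4B on shoots, and IDM3 and Solyc08g067630.3 on roots. The +N against −N values of these genes are therefore given as a description, without a test.

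The libraries come from shoots and roots of Solanum lycopersicum plants of the cultivar M82. They were raised on plates and then in hydroponics to an age of 22 days, and then deprived of nitrogen for 4 days. The +N plants then received nitrate and the −N plants received nitrogen-free medium once more, and both were harvested 6 h later. The 4 groups are thus shoot +N, shoot −N, root +N and root −N, with 3 poly(A) RNA libraries each, and all of them went through the same starvation. Each library pooled several plants, so the spread between libraries is that between pools. The −N plants are starved plants rather than plants in a steady supply.

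Histones carry acetyl and methyl groups that help to set how readily a gene is transcribed. Histone deacetylases remove acetyl groups. HDT1 belongs to the HD2 type, a family found in plants, whose Arabidopsis members lie in the nucleolus and take part in silencing of rRNA genes. Protein arginine methyltransferases add methyl groups to arginines of histones and other proteins, and PRMT4B is one of the Arabidopsis enzymes that methylate histone H3. The tomato gene Solyc04g082740.4 is annotated as a protein with an alpha-crystallin domain, and is called IDM3 here after its Arabidopsis match. IDM3 in Arabidopsis is a small protein with the alpha-crystallin fold of the HSP20 heat shock proteins. It belongs to a complex that acetylates histones at methylated loci and so helps the enzymatic removal of DNA methylation.

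The annotation of Solyc08g067630.3 and its closest Arabidopsis gene did not point to the same function. The Arabidopsis match listed for it, AT2G25625, is not a histone deacetylase but codes for CHLOROPLAST VESICULATION, a protein that takes part in the breakdown of chloroplasts in senescing and stressed leaves. The gene is called by its identifier from here on. No sequence or position is given for the 4 genes, since the gene table used here is of another assembly and none of its names matched.

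Counts are reads per gene, and the totals of the 12 libraries ran from 17472760 to 21901432. For display they were divided by library size to give CPM on 1 scale for all 12 libraries, after TMM scaling, which evens out differences in composition between libraries. CPM do not correct for gene length, so levels are compared only within a gene. Log2 fold changes are +N over −N and come from a fit of the 6 libraries of an organ, scaled within that organ, and therefore differ a little from ratios of the CPM. Calls follow the thresholds of the study, an adjusted p below 0.015 and a change of at least 2-fold, and all 4 genes passed the filter on low counts in every fit. The organ labels matched 8 shoot and 8 root marker genes. Summed shoot marker levels were 7418 to 8133 CPM in shoot +N and 3551 to 4149.5 CPM in shoot −N, against 14.9 to 18.5 CPM in root +N and 5.70 to 9.94 CPM in root −N. Root markers summed to 36.4 to 40.5 CPM in shoot +N and 29.8 to 34.2 CPM in shoot −N, with 6 and 3 of 8 at 0, against 343 to 372 CPM in root +N and 374 to 428 CPM in root −N. In root +N, 1 root marker, a Casparian strip membrane protein gene, was itself at 0. It was at 0 in shoot +N too, so it did not tell the organs apart in +N. Most of each root marker sum came from a peroxidase gene (Solyc02g092580.3), which also had reads in shoots. Its means were 314 CPM in root +N, 370 CPM in root −N, 38.1 CPM in shoot +N and 30.6 CPM in shoot −N.

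HDT1, covered by 5031 to 18556 reads a group, stood higher with nitrogen in both organs. It had 360, 350.1 and 353 CPM in the 3 shoot +N libraries, against 73.3, 78.9 and 76.6 CPM in the shoot −N libraries. Roots gave 287, 276 and 288 CPM in +N, against 137, 147 and 141 CPM in −N. In either organ the 3 values with nitrogen exceeded the 3 without, with no more than 3.68% between-library variation (SD over mean) in any group. The log2 fold change was 2.31 ± 0.05 in shoots and 1.00 ± 0.05 in roots (SE), that is 4.95-fold and 2.00-fold. The root value sat on the 2-fold line itself. Of all genes tested, 2.57% in shoots and 13.4% in roots had a larger change in either direction.

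The order of the HDT1 levels crossed between the organs. It ran from shoot +N (354.5 ± 5.24 CPM, SD, n = 3) through root +N (284 ± 6.48 CPM) and root −N (141 ± 4.83 CPM) to shoot −N (76.2 ± 2.81 CPM), and no neighbours in that order overlapped. Shoots thus held both the highest and the lowest level of this gene.

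Solyc08g067630.3 showed the opposite pattern and the widest range of the 4 genes. Its 3 shoot +N libraries held 10, 15 and 20 reads, against 608, 951 and 643 in the shoot −N libraries. On the CPM scale these were 0.588, 0.789 and 1.22 CPM in shoot +N, against 29.0, 42.3 and 28.6 CPM in shoot −N. Nearly all reads of this gene thus came from starved shoots.

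In roots it had 0.212, 0.557 and 0.351 CPM in +N and 1.54, 1.29 and 1.47 CPM in −N, from 20 reads in all +N and 89 in all −N libraries. In both organs all +N values were below all −N values. The log2 fold change was −5.18 ± 0.22 in shoots, or 36.1-fold lower in +N, and −1.93 ± 0.40 in roots, or 3.80-fold lower. In shoots 0.135% of the genes tested had a larger change in either direction, and in roots 3.17%. The levels fell in the order shoot −N (33.3 ± 7.80 CPM), root −N (1.43 ± 0.128 CPM), shoot +N (0.867 ± 0.324 CPM) and root +N (0.374 ± 0.174 CPM). The last 3 rest on few reads, and the lowest shoot +N library lay only just above the highest root +N library.

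PRMT4B differed with nitrogen mainly in shoots. It had 119, 109 and 119 CPM in shoot +N, against 64.2, 62.1 and 56.3 CPM in shoot −N. In roots it had 62.2, 60.7 and 60.0 CPM in +N, against 54.8, 55.8 and 50.8 CPM in −N. The +N libraries were above the −N libraries in both organs, by a wide margin in shoots and a narrow one in roots. The log2 fold change was 1.02 ± 0.06 in shoots, 2.02-fold, and 0.18 ± 0.06 in roots, 1.13-fold. In roots, 72.0% of all genes tested had a larger change in either direction, so the root value lay within the bulk of the genes. Shoot +N (115.6 ± 6.02 CPM) stood apart from the other groups. Root +N (61.0 ± 1.14 CPM) and shoot −N (60.8 ± 4.10 CPM) overlapped, and root −N (53.8 ± 2.66 CPM) was just below them.

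IDM3, covered by few reads, differed with nitrogen mainly in roots. It had 0.903, 1.28 and 0.994 CPM in root +N, against 1.69, 2.45 and 2.65 CPM in root −N, from 57 and 142 reads. In shoots it had 7.65, 10.5 and 7.95 CPM in +N, against 11.6, 8.72 and 11.9 CPM in −N. The root groups did not overlap, whereas the shoot groups did. The log2 fold change was −1.10 ± 0.29 in roots, or 2.14-fold lower in +N, and −0.21 ± 0.15 in shoots. The organs were far apart, with shoot +N (8.69 ± 1.55 CPM) and shoot −N (10.7 ± 1.76 CPM) above root +N (1.06 ± 0.198 CPM) and root −N (2.26 ± 0.507 CPM).

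**Figure D1:**
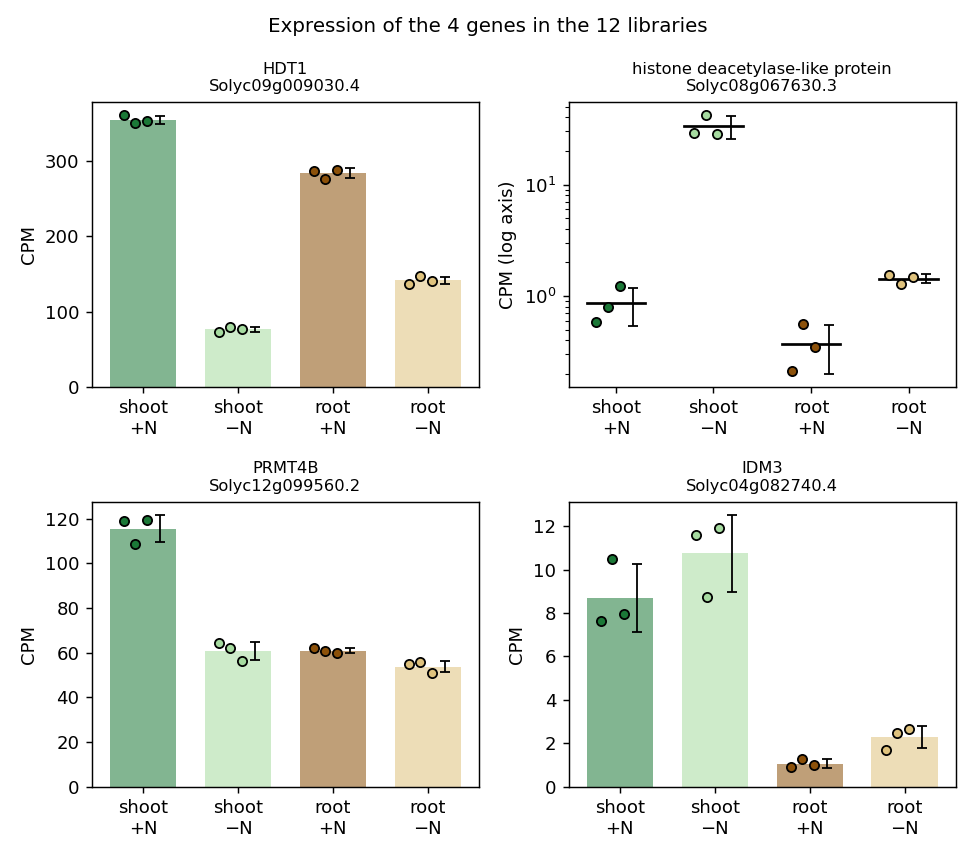
CPM (y axis, linear from 0 except for Solyc08g067630.3, where it is logarithmic) of the 4 genes in each of the 12 libraries, by organ and nitrogen treatment. Points are libraries, bars or horizontal lines are the means and error bars the SD of 3 libraries. HDT1 and PRMT4B are highest in shoot +N (means 354.5 and 115.6 CPM), Solyc08g067630.3 and IDM3 in shoot −N (33.3 and 10.7 CPM).

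By the thresholds of the study, 3 of the 4 genes passed in shoots (HDT1 and PRMT4B higher, Solyc08g067630.3 lower in +N), where 21.0% of 20689 genes did. In roots 3 of the 4 passed (HDT1 higher, Solyc08g067630.3 and IDM3 lower), where 12.6% of 21049 genes did. These counts follow from how the genes were chosen and carry no weight of their own. The values next to the threshold were the 1.00 of HDT1 in roots, the 1.02 of PRMT4B in shoots and the −1.10 of IDM3 in roots, all inside it. The −0.21 of IDM3 in shoots and the 0.18 of PRMT4B in roots lay far outside it. The ranges with and without nitrogen were separate for 4 of 4 genes in roots and 3 of 4 in shoots, which held for 64.1% of all genes tested in roots and 72.2% in shoots. Single libraries mattered for the values next to the threshold: with a library left out, HDT1 in roots ran from 0.98 to 1.03, PRMT4B in shoots from 0.96 to 1.06 and IDM3 in roots from −1.26 to −0.97.

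Scaling by total counts in place of TMM moved the median of all genes to −0.18 in roots and −0.30 in shoots, with TMM medians at −0.01 in both. On that scale HDT1 was 0.84 in roots and PRMT4B 0.72 in shoots, both short of the 2-fold line, and PRMT4B in roots was 0.01, while no sign changed among the 4 genes. In shoots, 3 of 8 shoot marker genes also passed the thresholds as higher in +N (13.4% of all genes), and their part in the shoot values of the 4 genes was not tested. In whole organs, fewer cells of a type and less RNA per cell cannot be told apart.

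**Figure D2:**
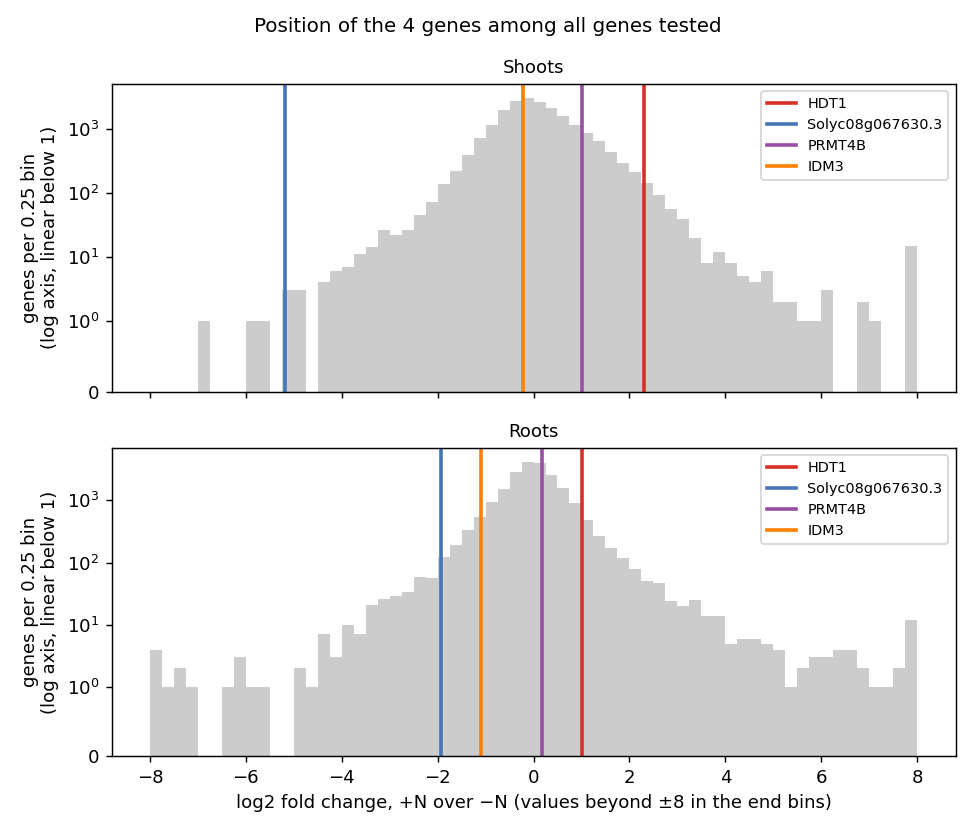
Number of genes per bin of 0.25 (y axis, logarithmic, linear below 1) against the log2 fold change of +N over −N (x axis) in shoots (20689 genes) and roots (21049 genes), with the 4 genes as vertical lines. Solyc08g067630.3 lies in the far left tail in shoots (−5.18), HDT1 in the right tail (2.31), and IDM3 in shoots (−0.21) and PRMT4B in roots (0.18) near the middle.

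The organ comparison was not used in the choice of the genes and was tested with edgeR's quasi-likelihood test over all 22483 genes of the 12-library fit, with Benjamini-Hochberg adjustment, although it rests on the same libraries. IDM3 was higher in shoots than in roots under both treatments, by a log2 fold change of 3.03 ± 0.23 in +N (8.19-fold, adjusted p = 7.09e-11) and 2.24 ± 0.19 in −N (4.71-fold, adjusted p = 7.10e-10). All shoot libraries were above all root libraries for IDM3 under both treatments. Solyc08g067630.3 was also higher in shoots, by 4.54 ± 0.20 in −N (23.2-fold, adjusted p = 3.37e-15). In +N, with 45 reads in the shoot and 20 in the root libraries, the log2 fold change was 1.20 ± 0.46 with an adjusted p = 0.0207, which missed the threshold of 0.015. That value depended on single libraries: it was 1.60 without root +N replicate 2 and 1.40 without shoot +N replicate 1, both past the threshold, and 0.89 at the lowest.

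For HDT1 the organ difference had opposite signs in the 2 treatments. The shoot was higher by 0.32 ± 0.04 on the log2 scale in +N (adjusted p = 1.08e-06) and lower in −N, at −0.89 ± 0.05 (adjusted p = 1.39e-13). Shoot and root libraries did not overlap in either case, and neither difference reached 2-fold. PRMT4B was higher in shoots by 0.92 ± 0.06 in +N (1.90-fold, adjusted p = 5.58e-12) and by 0.18 ± 0.06 in −N (adjusted p = 0.0142), again under 2-fold. In all, 1 of the 4 genes passed both thresholds in +N (44.8% of all genes did) and 2 of 4 in −N (37.9%). At an adjusted p of 0.05 without the fold threshold, 4 of 4 passed in +N (81.2% of all genes) and 4 of 4 in −N (75.7%). Shoot and root libraries were separate for 4 of 4 genes in +N (83.3% of all genes) and 4 of 4 in −N (77.0%). The change of the organ difference between treatments is the same quantity as the change of the N effect between organs, and so is no separate result. It passed an adjusted p of 0.05 for 4 of the 4 genes, as for 48.4% of all 22483.

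The list of further deacetylases held 2 more HD2-type genes, HDT2 (Solyc11g066840.3) and HD2C (Solyc10g085560.3). Solyc11g066840.3 is itself annotated as HDT1, and is called HDT2 here after its Arabidopsis match. HDT2 had 859, 825 and 863 CPM in shoot +N and 113.5, 129 and 129 CPM in shoot −N. In roots it had 481, 484 and 518 CPM in +N and 262, 279 and 256 CPM in −N. HDT2 thus followed the order of HDT1, with no overlap between any +N and −N library of an organ. Its log2 fold change was 2.87 ± 0.06 in shoots (edgeR adjusted p = 3.56e-18) and 0.90 ± 0.05 in roots (adjusted p = 5.86e-10), and the root value was under 2-fold. HDT2 was in the study's lists made from these libraries, so these 2 p-values are not independent evidence. Like HDT1, it was lower in shoots than in roots in −N (−1.10 ± 0.05, adjusted p = 3.99e-14) and higher in +N (0.78 ± 0.05, adjusted p = 7.41e-12).

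HD2C changed less. It averaged 79.1 ± 4.33 CPM in shoot +N and 36.2 ± 3.82 CPM in shoot −N, and 53.7 ± 1.41 CPM in root +N and 38.9 ± 2.51 CPM in root −N (SD, n = 3). The log2 fold changes were 1.22 ± 0.07 in shoots and 0.46 ± 0.06 in roots. All 3 HD2-type genes were higher with nitrogen in both organs. In shoots all 3 passed the thresholds as higher (13.4% of all genes did), and in roots only HDT1 did (6.23%). All 3 were chosen with their change in these libraries known, so the shared direction is not independent evidence. No source used here says how reads that fit more than 1 copy were counted, and the split of reads between these related genes is uncertain for that reason.

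The other 3 deacetylases of the list are of unrelated types. HDA14, which acts in chloroplasts in Arabidopsis, averaged 19.3 ± 0.529 CPM in shoot +N and 26.1 ± 0.409 CPM in shoot −N. Its log2 fold change was −0.34 ± 0.08 in shoots and 0.40 ± 0.13 in roots. HDA15, a repressor in light responses of Arabidopsis seedlings, gave 0.49 ± 0.08 in shoots and 0.11 ± 0.07 in roots, where total-count scaling turned the sign (−0.05). SRT1, an NAD-dependent deacetylase of the sirtuin type, gave −0.12 ± 0.17 in shoots and 0.26 ± 0.19 in roots, and its groups overlapped in both. Of the 5 deacetylases besides the genes described here, 2 passed the thresholds as higher in shoots (13.4% of all genes did) and 0 in roots (6.23%), with a median log2 fold change of 0.49 in shoots and 0.40 in roots beside all-gene medians of −0.01. By DESeq2 0 passed in roots as well. At an unadjusted p below 0.05 in edgeR, 3 were higher in roots. Without the fold threshold, at an adjusted p of 0.05, 3 were higher in roots (57.9% of all genes passed in either direction), and 3 were higher and 1, HDA14, lower in shoots (68.2%). Between organs in −N, HDT2 passed as lower in shoots (18.1% of all genes) and HDA14 as higher (19.8%). HDT2 and HD2C were in the study's lists made from these libraries, so their direction is not independent evidence.

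Of the 6 arginine methyltransferases listed besides PRMT4B, 6 passed as higher in shoots (13.4% of all genes) and 3 in roots (6.23%), and the log2 fold changes of all 6 were above 0 in both organs. Their median log2 fold change was 1.96 in shoots and 0.91 in roots. All 6 were in the study's lists made from these libraries, so the count is not independent evidence of a direction. PRMT4B, at 1.02 in shoots and 0.18 in roots, lay below each of the 6 in both organs. PRMT5, which methylates histones and splicing factors in Arabidopsis, was nearest to it, with 1.27 ± 0.05 in shoots and 0.25 ± 0.05 in roots. The difference between PRMT4B and the 6 others was not tested.

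PRMT3, an enzyme tied to ribosome assembly, had the largest change of the 6. It averaged 90.3 ± 4.66 CPM in shoot +N and 14.99 ± 0.236 CPM in shoot −N, and its log2 fold change was 2.68 ± 0.07 in shoots and 1.38 ± 0.07 in roots. PRMT1B methylates fibrillarin in Arabidopsis, and 2 tomato genes carry its name. Solyc12g008760.3 was at 2.27 ± 0.07 in shoots and 1.14 ± 0.07 in roots, and Solyc07g032240.3 at 1.63 ± 0.07 in shoots and 0.69 ± 0.08 in roots. PRMT10 was at 1.96 ± 0.08 in shoots and 0.59 ± 0.09 in roots. The gene annotated as protein arginine N-methyltransferase 2 (Solyc04g078120.3) was at 1.97 ± 0.11 in shoots and 1.19 ± 0.14 in roots.

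In the organ comparison 4 of the 6 arginine methyltransferases passed as higher in shoots in +N (22.8% of all genes) and 0 in −N (19.8%), where DESeq2 called 0 as well, and 2 were higher and 1, PRMT5, lower at an unadjusted p below 0.05. PRMT4B had the same sign in both treatments without reaching 2-fold in either.

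**Figure D3:**
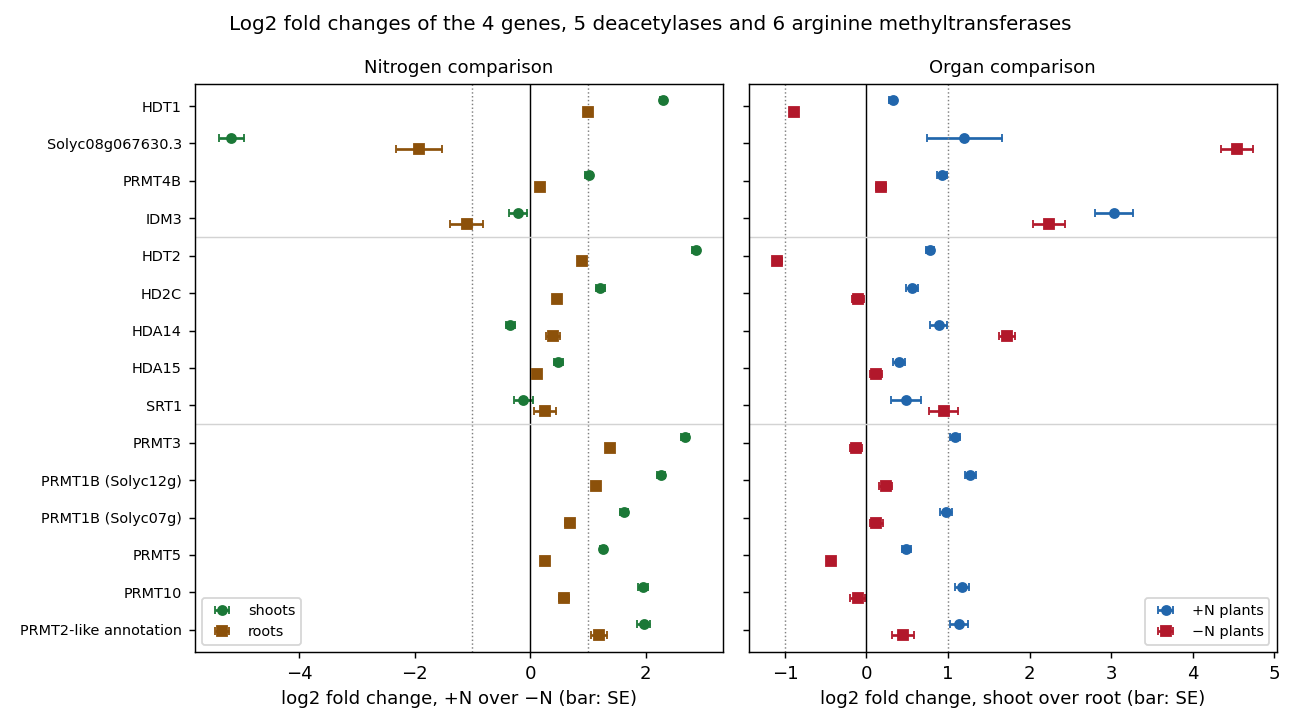
Log2 fold changes (x axes, error bars SE) of the 4 genes (top block), 5 further deacetylases (middle) and 6 further arginine methyltransferases (bottom). The left panel gives +N over −N for shoots (circles) and roots (squares), the right panel shoot over root for +N (circles) and −N plants (squares), with dotted lines at 2-fold. HDT1 and HDT2 lie on opposite sides of 0 in the right panel in the 2 treatments, IDM3 is above 2-fold in both, and PRMT4B lies left of the 6 other arginine methyltransferases in the left panel.

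Since HD2-type deacetylases lie in the nucleolus, nucleolar and rRNA processing genes were set beside HDT1. Of 10 such genes 9 passed as higher in shoots (13.4% of all genes) and 8 in roots (6.23%), with a median log2 fold change of 2.12 in shoots and 1.20 in roots. The largest change in shoots was that of fibrillarin (Solyc03g025270.3), a core protein of the nucleolus, at 3.10 ± 0.05. In roots it was that of nucleolar protein 58 (Solyc09g083080.4) at 1.41 ± 0.05. HDT1 lay near the median of this list in shoots (2.31) and below it in roots (1.00). Of the 10 genes, 8 were in the study's lists made from these libraries, the same 8 that passed in roots. These counts are therefore not independent evidence.

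For Solyc08g067630.3, whose Arabidopsis match acts in chloroplast breakdown, the set was 7 genes of chlorophyll breakdown and autophagy, of which 6 were tested. Of these, 3 passed as lower in +N in shoots (7.62% of all genes) and 3 in roots (6.38%). The largest fall was that of green flesh (Solyc08g080090.3), the tomato gene for the protein that starts chlorophyll breakdown, at −2.13 ± 0.09 in shoots and −2.43 ± 0.21 in roots. The median was −1.004 in shoots and −0.92 in roots. Solyc08g067630.3 lay beyond every gene of the list in shoots (−5.18) and within its range in roots (−1.93). The study's lists made from these libraries held 3 of the 7 genes, the same 3 that passed in roots. These counts are therefore not independent evidence.

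For IDM3 the set was 13 genes with HSP20 or alpha-crystallin domains, of which 5 were tested in roots and 4 in shoots, the rest having too few reads. In roots 3 passed as higher in +N (6.23% of all genes), whereas IDM3, at −1.10, lay on the other side of 0. The largest rise was that of a class II heat shock protein gene (Solyc08g062437.1) at 3.17 ± 0.36. In shoots 2 passed as lower (7.62%), the largest fall being a class I heat shock protein gene (Solyc10g086680.1) at −1.90 ± 0.34. Their medians were 1.33 in roots and −0.88 in shoots. The study's lists made from these libraries held 6 of the 13 genes, among them all 3 that passed in roots. These counts are therefore not independent evidence.

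The remaining sets hold other enzymes and readers of histone marks. Of 6 lysine methyltransferases tested in shoots, 3 passed as higher (13.4% of all genes) and 1 as lower (7.62%), led by ASHR2 (Solyc09g090030.2) at 1.70 ± 0.09 and a gene annotated as ATXR2 (Solyc02g031730.1) at −2.79 ± 0.22. In roots 0 of 5 passed in edgeR and 0 in DESeq2, while 3 were higher and 1 lower at an unadjusted p below 0.05. Of 5 acetyltransferases and bromodomain genes, 2 passed as higher in shoots (13.4% of all genes), led by the acetyltransferase HAG2 (Solyc02g068580.1) at 1.25 ± 0.08. In roots 1 passed as higher (6.23%), the bromodomain gene GTE12 (Solyc02g071510.3), at 1.23 ± 0.06. Of 3 demethylase genes tested, 3 passed as higher in roots (6.23% of all genes) and 1, JMJ22 (Solyc10g081630.2) at 1.63 ± 0.11, in shoots (13.4%). JMJ22 is the name of its Arabidopsis match, and the tomato gene is annotated as an F-box protein. The largest rise in roots, 3.42 ± 0.22, was that of Solyc03g031880.3, annotated as a lysine-specific demethylase but matched to PAO4, a polyamine oxidase in Arabidopsis. The study's own lists made from these libraries held 4 of the 4 demethylase genes, 3 of the 7 lysine methyltransferases and 2 of the 5 acetyltransferases and bromodomain genes, so these counts are not independent evidence either.

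Among the 4 genes, log2 CPM over the 12 libraries went in opposite ways for HDT1 and Solyc08g067630.3 (Pearson r = −0.89) and together for Solyc08g067630.3 and IDM3 (0.67) and for HDT1 and PRMT4B (0.63). The 12 points are 4 groups of 3 libraries, so they share the group means given above and the depth of each library. Within shoots HDT1 and PRMT4B reached 0.99, and within roots 0.90, over 6 libraries each. Those 6 are 3 +N and 3 −N libraries, so these values too mainly reflect the N differences given above. They were not particular to this pair: PRMT4B and IDM3 were at −0.90 in roots.

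The genes most like each of the 4 were those with the highest Pearson r of log2 CPM over the 12 libraries, among 22482 other genes. For HDT1 these were Solyc01g104590.3, Solyc09g005720.3 and Solyc01g103800.3, each with r = 0.998, and 514 genes (2.29%) had an r above 0.95. Their log2 fold changes in shoots were 2.08, 1.89 and 2.06, all a little below the 2.31 of HDT1. For Solyc08g067630.3 they were Solyc02g076870.4 (r = 0.994), Solyc04g007980.3 (0.991) and Solyc03g121880.4 (0.989), with 193 genes (0.858%) above 0.95. The first of these had a log2 fold change of only −0.63 in shoots, since r measures the shape of a profile and not its size.

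For PRMT4B the nearest were Solyc04g005510.3 (r = 0.994), Solyc11g012410.2 (0.992) and Solyc06g065800.3 (0.992), with 301 genes (1.34%) above 0.95. For IDM3 they were Solyc08g005050.4 (0.994), Solyc10g087030.1 (0.991) and Solyc02g090430.3 (0.991), with 1103 genes (4.91%) above 0.95. The last is annotated as MAP kinase kinase kinase 20, while the sources used here gave no annotation for the others. All 3 neighbours of IDM3 shared its main feature, a level in shoots above that in roots, with log2 fold changes of 1.96, 4.90 and 4.53 in +N and 1.63, 3.74 and 3.53 in −N. That they share it follows from how they were picked, by likeness over the same libraries.

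**Figure D4:**
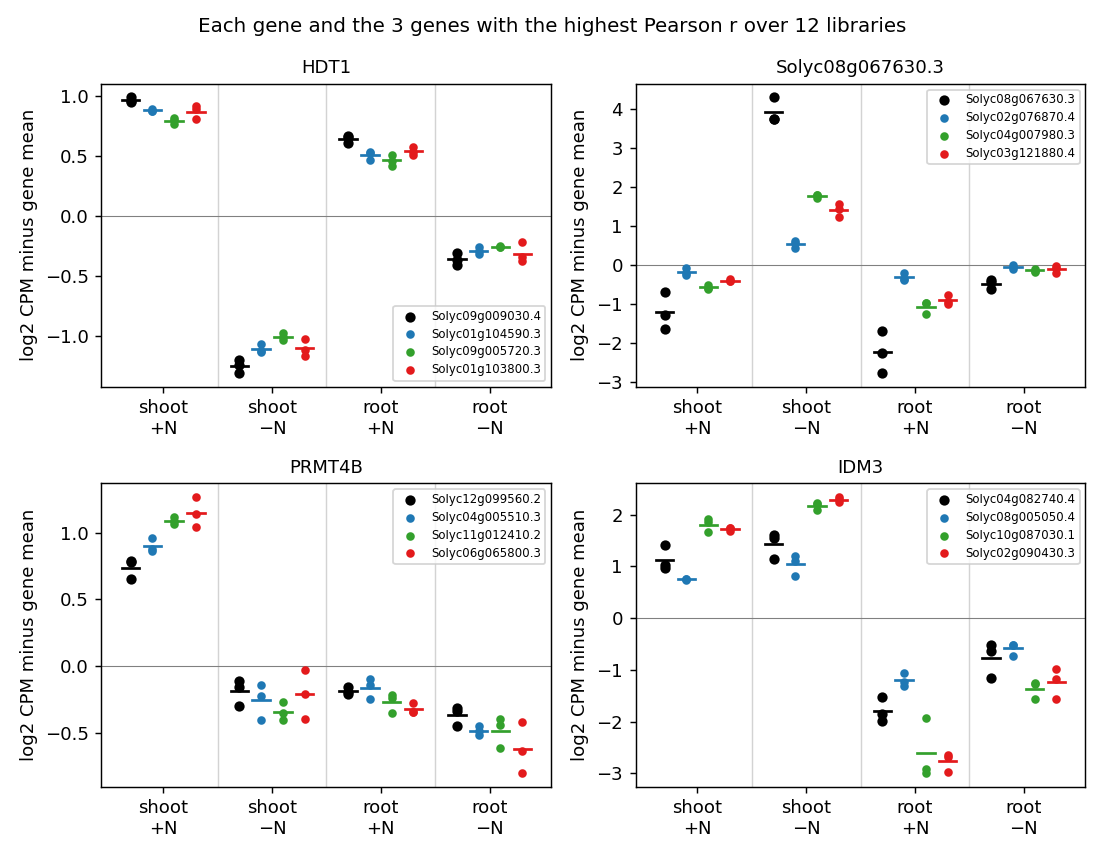
Log2 CPM minus the mean of the gene over 12 libraries (y axis) in each group for the 4 genes (black) and the 3 genes with the highest Pearson r to each (colours). Points are libraries and short lines the means of 3 libraries. The neighbours of HDT1 share its order with shoot +N on top and shoot −N at the bottom, and those of Solyc08g067630.3 share its shape at a smaller size.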

How the data were processed

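The 4 genes and all gene lists were chosen with earlier results of these data known, so they are not an independent sample. Per the paper's methods and the submitters' processing notes, the authors trimmed the reads with Cutadapt, aligned them with TopHat2 to tomato genome build 4.0 and made the deposited read counts per gene with HTSeq. The sources used here give no tool versions, strand setting or treatment of reads with several matches, and reads of antisense or overlapping genes cannot be told apart. Only the count table of 12 poly(A) RNA libraries was used, and the ChIP-seq samples were not analysed here. Replicates of a group differed by more than sampling noise (chi-square per degree of freedom 2.50 to 7.20), so each counted as 1 sample.

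Counts were tested as deposited with edgeR's quasi-likelihood test (version 4.0.16, R 4.3.3), after filterByExpr with a minimum count of 10 and TMM scaling. N effects were fitted on the 6 libraries of an organ, and organ comparisons and the interaction on all 12. P-values were adjusted over all genes tested by the Benjamini-Hochberg method. Calls needed an adjusted p below 0.015 and at least 2-fold, and for the interaction an adjusted p below 0.05. With 3 libraries against 3 the smallest exact permutation p would be 0.1. Log2 CPM used a prior count of 2. The test was checked on simulated data with changes well above 2-fold in well-covered genes. That check does not cover values near 2-fold or values from few reads. Lists were taken from annotations in the study's supplementary tables, which hold mainly genes that the study found changed, and 1 listed gene is not reported here. Named were the 4 genes, every gene of the deacetylase and arginine methyltransferase lists, of each other list the called gene with the largest rise and fall in each organ, and the 3 genes with the highest Pearson r to each of the 4. The Casparian strip gene is named for its count of 0, and a peroxidase gene for its share of the root marker sums, both without a fold change. Alternatives were DESeq2, other scalings and filters, other sets of libraries in the fit, a replicate block, a looser threshold, other measures of likeness and leaving out each library.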

Additional observations from a re-analysis of the deposited data

Results flagged for a closer look

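A difference between organs in the effect of nitrogen was tested for the 4 genes, the further deacetylases and arginine methyltransferases and the genes with the largest called change of each other list, 30 genes in all, as the N by organ interaction in edgeR (adjusted p below 0.05, which 48.4% of all 22483 genes passed), and 24 passed. Values are the log2 effect in shoots minus that in roots, from the 12-library fit. For the 4 genes themselves this follows from the values they were chosen on and is a description. The others came from lists that hold mainly genes the study found changed, and some were named for a large called change in an organ. Such a choice favours a difference between organs, so the count of 24 is not independent evidence.

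HDT1 gave 1.21 ± 0.07 (SE), PRMT4B 0.75 ± 0.09 and Solyc08g067630.3 −3.34 ± 0.60, each larger in size in shoots. IDM3 gave 0.80 ± 0.32, its fall in roots being the larger one.

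Among the further deacetylases, HDT2 gave 1.88 ± 0.08, HD2C 0.66 ± 0.10, HDA15 0.29 ± 0.11 and HDA14, which was higher in roots and lower in shoots with nitrogen, −0.83 ± 0.14. Among the further arginine methyltransferases, PRMT10 gave 1.28 ± 0.13, PRMT3 1.21 ± 0.09, the PRMT1B genes 1.04 ± 0.11 (Solyc12g008760.3) and 0.85 ± 0.11 (Solyc07g032240.3), PRMT5 0.93 ± 0.07 and Solyc04g078120.3 0.68 ± 0.17. The effect of nitrogen was thus larger in shoots for all 6 arginine methyltransferases.

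Of the other named genes, fibrillarin gave 1.82 ± 0.07, nucleolar protein 58 1.32 ± 0.08, ASHR2 0.77 ± 0.14 and HAG2 0.73 ± 0.11. GTE12 gave −0.63 ± 0.08, Solyc03g031880.3 (PAO4) −2.82 ± 0.39 and the class II heat shock protein gene −3.81 ± 0.94. Of the organ markers, 2 chlorophyll a-b binding protein genes gave 2.94 ± 0.50 (Solyc02g070980.1) and −2.23 ± 0.19 (Solyc12g011450.2), and a pectate lyase gene (Solyc02g080910.4) −1.67 ± 0.44. Several of these values rest on few reads in an organ. The class II heat shock protein gene had 6 reads in shoot +N and 12 in shoot −N, too few for the fit of shoots alone. Solyc02g070980.1 had 20 in root +N and 38 in root −N, and Solyc12g011450.2 had 50 in root −N. The pectate lyase gene had 43 in shoot +N and 40 in shoot −N.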

How the results depend on the processing

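For the 4 genes, 137 of 152 values under other settings and 125 of 144 values with a library left out kept their direction and their side of the thresholds, and none turned its sign. Of the other named genes, 910 of 950 and 899 of 912 values stayed on their side of the thresholds, among them small ones under the thresholds that turned their sign. HDT1 in roots was 0.84 with total counts and 1.00 (0.99915) with at least 1 CPM in 3 libraries, both short of 2-fold, and 0.98 to 1.03 with a library left out, short of it without root −N replicates 1 and 3 and root +N replicates 1 and 3. PRMT4B in shoots was 0.72 with total counts and 0.93 with all 12 libraries in the fit, and 0.96 to 1.06 with a library left out, short without shoot −N replicate 3 and shoot +N replicates 1 and 3. IDM3 in roots ran from −1.26 to −0.97 (adjusted p 0.00219 to 0.0222), and missed the threshold without root −N replicates 2 and 3 and root +N replicates 1 and 3. The interaction of IDM3 was 0.76 with total counts (adjusted p = 0.055), 0.78 with the replicate block (0.0593) and 0.64 to 0.96 with a library left out (0.0169 to 0.122), missing the threshold without root −N replicates 2 and 3, root +N replicates 1 and 3, shoot −N replicate 2 or shoot +N replicate 2. Solyc08g067630.3 in +N, shoot over root, passed with DESeq2 (1.23), no filter (1.19) and the replicate block (1.19), and ran from 0.89 to 1.60 with a library left out. Without the fold threshold at an adjusted p of 0.05, HDT1 (0.32 in +N, −0.89 in −N), PRMT4B (0.92 and 0.18) and Solyc08g067630.3 (1.20 in +N) passed between organs, and PRMT4B in roots (0.18).

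Calls over all genes rose to 12197 in roots, 14112 in shoots, 18260 between organs in +N and 17022 in −N at that threshold, against 2654, 4348, 10074 and 8517, and stayed within 1.5 times under the other settings. With a library left out they were 2576 to 2679 in roots, 4217 to 4352 in shoots, 10041 to 10070 between organs in +N, 8508 to 8607 in −N and 10275 to 10719 for the interaction. With total counts, 34.4% of calls were higher in roots and 37.6% in shoots, against 49.4% and 63.7% with TMM. Same-numbered replicates deviated together little or not at all (correlations from −0.03 to 0.05). The highest were 0.05 and 0.04, for replicates 1 and 3 between organs in −N, where the best other replicate gave 0.002 and 0.006. The replicate block gave 2616 calls in roots, 4327 in shoots, 10054 between organs in +N and 8497 in −N. The numbers were therefore not taken as pairs. For the genes most like each of the 4, the other measures of likeness gave mostly other genes: of the 3 named, 1 was shared under Spearman for PRMT4B and 0 in every other case. Low counts of IDM3 and Solyc08g067630.3 limit their root values.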
